A study of Homo sapiens with 15 samples.

Results

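Of the 15 RNA libraries made from MDA-MB-231 spheroids, 3 held far more fibroblast transcripts than the other libraries of their own dose. They were the second replicate of the 0.5 nM group, the second of the 5 nM group and the first of the 500 nM group, and they are called the fibroblast-rich libraries. They were chosen by their measured levels of COL1A1, COL3A1, SPARC, DCN, POSTN, BGN and THY1, so the difference in these genes, and in every other gene of the same contrast, is given as a description with no test. They were set against the 6 other libraries of the same doses, 2 at each dose, and against the 6 libraries from DMSO and 50 nM.

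MDA-MB-231 is an established line from a triple-negative breast cancer, and its spheroids were grown for 72 h before a further 24 h with ZJ-101, a synthetic analog of the sponge compound superstolide A, or with 0.1% DMSO alone. The 5 groups, DMSO and ZJ-101 at 0.5, 5, 50 and 500 nM, had 3 libraries each, and the pooled spheroids of 1 biological replicate made 1 library. No other cell type is named in the labels of any library, and no batch is given. Values are normalised read counts, that is reads per gene divided by the size factor of the library, and libraries held 7773325 to 10065633 reads in genes. The fibroblast-rich libraries held 8161124, 9558952 and 8681413 reads and 22439 to 22759 detected genes, within the range of the other 12 libraries.

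Fibroblasts are the connective tissue cells that lay down the fibrous matrix around other cells. They secrete type I and type III collagen, which are cut by secreted proteases and assembled into fibrils together with small proteoglycans such as decorin, and they build elastic fibres on fibrillin and fibulin scaffolds. Their transcripts are commonly used to recognise them in tumour tissue, while a carcinoma line grown alone is usually poor in many of them. In a bulk library a larger number of such cells, more of their RNA per cell and expression by the line itself cannot be told apart. The source of the transcripts was not tested.

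An excess was counted where a fibroblast-rich library, plus a pseudocount of 1, was at least 2 times the higher of the other 2 libraries of its dose. Of 15247 genes whose mean over the 3 libraries reached 10, 36 (0.236%) met this at all 3 doses, and 0 met the mirror rule for a deficit. This share is the background for every count of list members given here, and since the libraries were selected on the same contrast nothing is read from it. A further 23 genes met the rule at 2 doses and 107 at 1 dose. The median of the mean log2 excess was -0.00 over all 15247 genes and 2.85 over the 36, which ran from 1.46 for FBLN2 to 5.06 for POSTN. In every one of the 36 genes, the 3 fibroblast-rich libraries stood above all 12 other libraries.

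The promoters of 3 genes are shown, picked because their 150 bases overlap no annotated exon. COL5A3 and ITGA11 are among the 36 and BGN is not. Like other genes not shown, these 3 were nearly unread with DMSO and at 50 nM. They had at most 3.61 normalised counts in any of those 6 libraries. In the other 6 libraries of the same doses COL5A3 had no read, ITGA11 had at most 3.78 and BGN at most 11.5. Each is the 150 bases before the RefSeq start on GRCh38.p14, read 5′ to 3′ on the strand of the gene, with a CCAAT box in capitals where one was found. COL5A3, which encodes a fibril-regulating type V collagen chain, lies on the minus strand (chr19:10010505-10010654). ITGA11, the collagen-binding integrin subunit of fibroblasts, also lies on the minus strand (chr15:68432164-68432313). BGN, which encodes the small proteoglycan biglycan, lies on the plus strand (chrX:153494830-153494979).
COL5A3: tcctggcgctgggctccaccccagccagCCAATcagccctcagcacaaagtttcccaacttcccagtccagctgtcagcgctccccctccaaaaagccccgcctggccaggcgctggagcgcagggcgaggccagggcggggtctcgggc
ITGA11: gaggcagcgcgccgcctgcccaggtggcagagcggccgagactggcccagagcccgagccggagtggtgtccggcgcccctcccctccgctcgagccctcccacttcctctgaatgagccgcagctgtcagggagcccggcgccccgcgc
BGN: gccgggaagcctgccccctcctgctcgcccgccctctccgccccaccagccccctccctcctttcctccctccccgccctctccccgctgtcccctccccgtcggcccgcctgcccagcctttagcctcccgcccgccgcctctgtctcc
Of the 36 genes, 19 had a promoter in the RefSeq table. The motif TATAAA, searched on both strands, was in 4 of the 19 (21.1%) against 7.05% of 27305 promoters of the same length, and CCAAT was in 5 of the 19 (26.3%) against 24.4%. These matches are a description of letters in a window and of few genes.

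All 7 markers that chose the libraries were highest in these 3 of the 15. COL1A1, the main chain of type I collagen (chromosome 17, 50184101 to 50201632 on hg38), had normalised counts of 112, 2387 and 268 in replicates 1 to 3 at 0.5 nM, then 294, 1345 and 129.7 at 5 nM and lastly 2302, 216 and 232 at 500 nM. It had 138, 139 and 139.6 with DMSO and 83.7, 86.1 and 93.9 at 50 nM, so it was also read there. Its mean over the 3 libraries was 9.65 times that of the other 6 at the same doses. COL3A1, the chain of type III collagen (chromosome 2, 188974373 to 189012746), had 2.70, 208 and 18.6 at 0.5 nM, then 17.1, 148 and 2.22 at 5 nM and lastly 207, 20.8 and 22.9 at 500 nM, against at most 2.01 in the 6 DMSO and 50 nM libraries. The marker values thus fell at 3 levels, high in the 3 chosen libraries, between in 4 libraries (the third at 0.5 nM, the first at 5 nM and the remaining 2 at 500 nM), and low in the other 8.

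SPARC, a collagen-binding matricellular protein, followed the same order with 13.5, 552 and 43.0 at 0.5 nM, then 76.1, 365 and 16.6 at 5 nM and lastly 555, 57.6 and 47.0 at 500 nM, beside 12.1 to 16.3 with DMSO. POSTN, the matricellular protein periostin of activated fibroblasts, had 0, 94.0 and 3.91 at 0.5 nM, then 1.07, 52.9 and 0 at 5 nM and lastly 91.2, 3.78 and 2.29 at 500 nM. It had no read in the 6 DMSO and 50 nM libraries, so its mean in the fibroblast-rich libraries was at least 165-fold higher than the floor of 3 reads over those 6. DCN, which encodes decorin, a small proteoglycan on collagen fibrils, had 51.3, 42.7 and 40.0 in the 3 libraries, at most 6.88 in the other 6 of the same doses and no read with DMSO or at 50 nM.

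The other 2 markers met the excess rule at 2 doses only. BGN had 50.3, 20.4 and 49.2 in the 3 libraries in order of dose, and at 5 nM the second highest library had 10.7. THY1, a surface glycoprotein of fibroblasts, had 21.9, 32.5 and 24.6, and at 0.5 nM the second highest library had 12.7. Both had no read with DMSO or at 50 nM, and both were still highest in the chosen library at each dose. Whether counting used strand is not given in the sources used here, and reads of THY1 and of THY1-AS1, whose annotated exon lies wholly within THY1 on the other strand, could not be told apart.

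**Figure D1:**
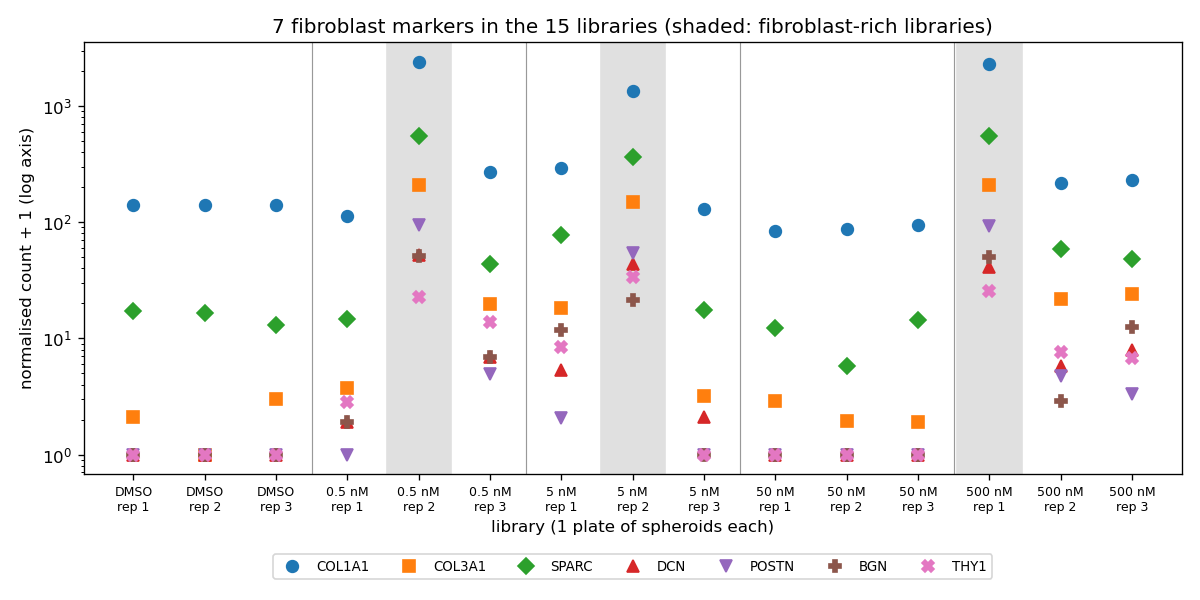
Normalised count plus 1, on a log axis, of the 7 markers in each of the 15 libraries, in order of dose, with 1 symbol per gene and the 3 fibroblast-rich libraries shaded. The shaded libraries carry the highest value of every marker, with COL1A1 at 2387, 1345 and 2302.

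The collagens among the 36 were those of interstitial fibrils. COL5A3 had 19.7, 13.9 and 17.4 in the 3 libraries and no read in the other 12. It was the only gene of the 36 with a read in none of the 12. COL5A2, the second type V chain of fibrils, had 52.4, 66.8 and 49.2 against 5.36 to 21.5 in the other 6 libraries of the same doses. COL1A2, the partner chain of COL1A1, was also read with DMSO, at 362 to 426, and had 1589, 1403 and 1263 in the 3 libraries. ADAMTS2, which removes the amino-terminal propeptide of fibrillar procollagens, had 16.4, 20.4 and 25.6 against at most 4.29 in the other 6.

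Of 35 genes for fibrillar collagens and their processing, 31 were measured at the minimum and 6 were in excess, namely COL5A3, COL3A1, COL1A1, ADAMTS2, COL5A2 and COL1A2, and the list median was 0.06 on the log2 scale. The other members were not in excess at all 3 doses. COL5A1 had 4534, 4209 and 1392 in the 3 libraries, with log2 excesses of 0.05, -0.01 and 0.13. PCOLCE, which aids procollagen cleavage, had a mean log2 excess of 1.03. Of 20 other collagens, 16 were measured at the minimum and 0 were in excess, with a list median of 0.08. With 0.236% of all measured genes in excess, 0 of 16 is near the background and is not read as a result. COL6A1 and COL6A2, chains of the beaded type VI filaments, had mean log2 excesses of 0.07 and 0.25.

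Among small leucine-rich proteoglycans, 5 of 13 genes were measured at the minimum, DCN and LUM were in excess, and the list median was 1.52. LUM, which encodes the fibril spacer lumican, had 42.6, 55.7 and 51.2 against 15.3 to 19.6 in the other 6 libraries of the same doses. FMOD, which encodes fibromodulin, had 47.0, 39.0 and 74.8, with a mean log2 excess of 0.03. OGN, OMD, EPYC and KERA had no read in the 3 libraries.

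Elastic fibre and matricellular genes were the largest group, with 7 of 28 measured members in excess and a list median of 0.30. Besides POSTN and SPARC these were FBN2, FBLN5, THBS2, ELN and FBLN2. FBN2, a fibrillin of microfibrils, had 31.7, 55.7 and 34.8 against at most 9.17 in the other 6. ELN, which encodes tropoelastin, had 38.2, 44.6 and 43.0 against 8.12 to 12.6, and its log2 excess was among the steadiest, at 1.90 ± 0.04 (SD over 3 doses). FBLN5, which helps tropoelastin onto microfibrils, had 18.6, 15.8 and 13.3. FN1, the fibronectin gene, had 54009 to 57278 with DMSO and a mean log2 excess of 0.10.

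Of 30 further fibroblast markers, 21 were measured at the minimum and 6 were in excess, with a list median of 0.58. These 6 were TWIST2, FAP, COL5A2, ELN, COL1A2 and LUM. TWIST2, a transcription factor of dermal and other mesenchyme, had 16.4, 6.50 and 9.22 and no read with DMSO or at 50 nM. FAP, a surface protease of activated fibroblasts, had 14.2, 7.43 and 25.6 against at most 2.22 in the other 6. Secreted signals and enzymes were few: WNT5A, a Wnt ligand, was the 1 gene in excess of 22 measured growth factors and signals (list median 0.03), and MMP2, a gelatinase made mostly by stromal cells, the 1 of 22 complement and protease genes (list median 0.09). WNT5A had 41.5, 23.2 and 32.8 against at most 4.72, and MMP2 had 117, 60.3 and 115 against 1.80 to 28.7.

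Of the 36 genes, 16 were in no list. ITGA11 had 55.7, 32.5 and 54.3 against at most 3.78 in the other 6, the second highest mean log2 excess at 4.28 ± 0.67 (SD over 3 doses). CD248, the surface protein endosialin of fibroblasts and pericytes, had 33.9, 39.0 and 35.9, against 0, 9.78, 11.8, 1.11, 12.3 and 13.8 in the other 6 in order of dose. AEBP1, a collagen-binding matrix protein, had 20.8, 11.1 and 37.9, and SLIT3, a secreted guidance ligand, had 20.8, 12.1 and 29.7. MEG3, an imprinted long noncoding RNA, had 38.2, 26.9 and 30.7 and at most 0.940 in the DMSO and 50 nM libraries. TMEM119, ADAM33, CRYAB, SGCD, ALPK2, TENM2, AC015909.1 and the antisense RNAs CLMAT3, THY1-AS1 and ACTA2-AS1 had mean log2 excesses between 1.47 and 3.26. CLMAT3 and ACTA2-AS1 overlap SPARC and ACTA2 on the other strand, so their reads could not be told apart from those of the overlapping gene.

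HRAS, a GTPase that is not a fibroblast marker, was also among the 36. It had 16.2, 127 and 10.8 at 0.5 nM, then 21.4, 253 and 25.5 at 5 nM and lastly 175, 59.5 and 56.2 at 500 nM, against 13.1 to 18.1 with DMSO and 17.9 to 32.5 at 50 nM. All 3 chosen libraries were above every other, and the highest was the 5 nM library, unlike for COL1A1. All 31-base words sampled from its exons (100%) also occur on 1 alternate contig of the genome, which can move reads between the copies, and the part of this in the HRAS values was not tested.

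**Figure D2:**
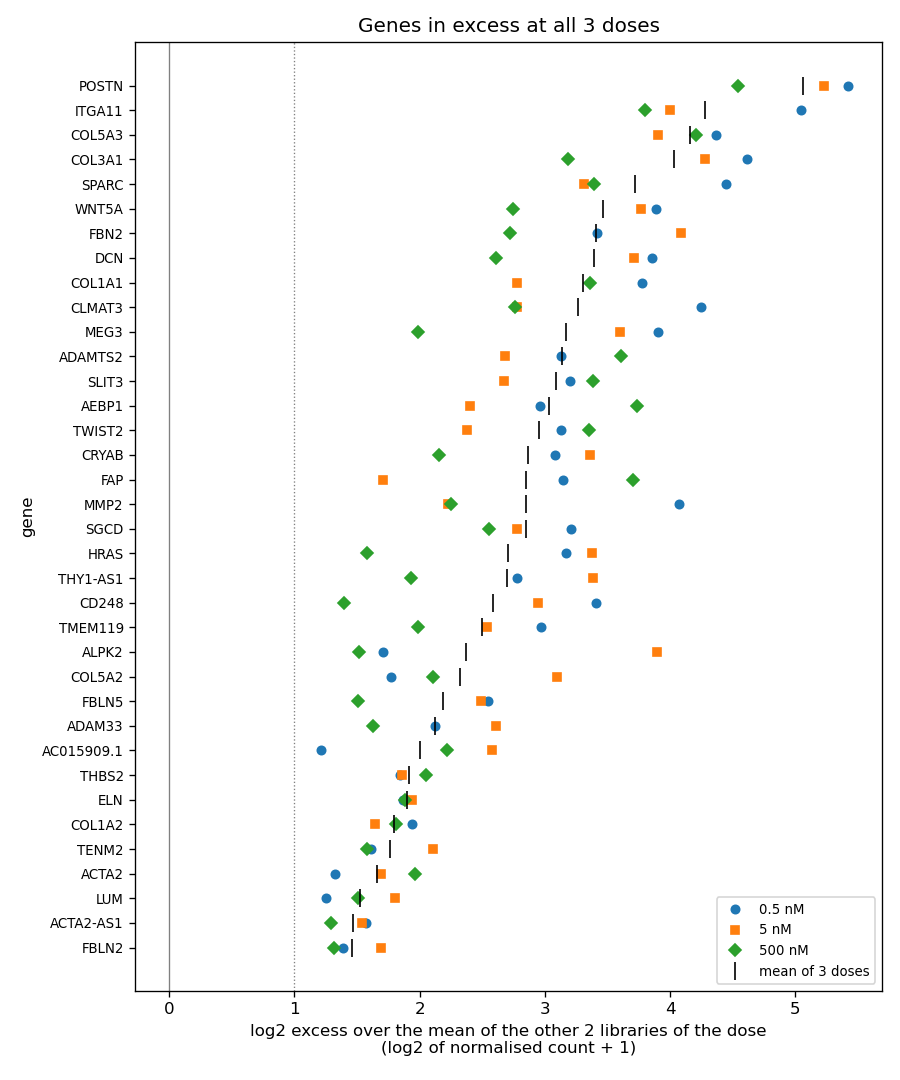
Log2 excess of each of the 36 genes in the chosen library over the mean of the other 2 libraries of its dose, on log2 of normalised count plus 1, with 1 symbol per dose and a bar at the mean. POSTN has the highest mean at 5.06 and FBLN2 the lowest at 1.46.

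The surplus over the mean of the DMSO and 50 nM libraries was divided by the merged length of all annotated exons. That length, 12941 bases for DCN, can exceed that of the transcript made, so the order of genes is rough. The surplus was highest for COL1A1, at 211 normalised counts per kilobase, then 103 for SPARC and 95.6 for COL1A2. HRAS had 68.3, COL3A1 27.6, THY1-AS1 25.8, MMP2 19.9, BGN 16.6, POSTN 14.5 and CD248 14.1. The chains of type I collagen and SPARC thus led the surplus per length. In all, the 36 genes summed to 5930, 4500 and 5571 normalised counts in the 3 libraries, 0.0665%, 0.0507% and 0.0626% of the library, against 604 to 726 in the 6 DMSO and 50 nM libraries. In the other libraries of the same doses the sum was 636 and 1043 for replicates 1 and 3 of the 0.5 nM group, 1140 and 679 for those of the 5 nM group, and 872 and 968 for replicates 2 and 3 of the 500 nM group.

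Genes without a read in the DMSO and 50 nM libraries gave the surplus over a background of 0 reads. There were 11 such genes whose mean in the 3 libraries reached 10, BGN, COL5A3, CRYAB, DCN, MXRA5, POSTN, SGCD, SLIT3, THY1, THY1-AS1 and TWIST2. THY1-AS1 was left out of their sum because its exon lies within THY1. The other 10 summed to 304 normalised counts (95% exact Poisson interval 269 to 342) in the 0.5 nM library, 226 (198 to 256) in the 5 nM library and 285 (252 to 320.4) in the 500 nM library. The intervals cover counting error only. The 5 nM library was the lowest of the 3, with an interval below that of the 0.5 nM library and overlapping that of the 500 nM library.

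At 0.5 nM these 10 genes reached 1.48% of the fibroblast-rich library in replicate 1 and 12.6% in replicate 3. At 5 nM the shares were 15.2% in replicate 1 and 0.492%, 1 read, in replicate 3. At 500 nM both other libraries held some, 7.63% in replicate 2 and 11.7% in replicate 3. No library at 500 nM was free of these transcripts. The 6 DMSO and 50 nM libraries had no read of them because the genes were picked for that, so those libraries are not compared here. An excess at 500 nM is therefore taken over libraries that themselves carry these genes. It was not lower there for every gene: POSTN had log2 excesses of 5.42, 5.23 and 4.54 at 0.5, 5 and 500 nM, and ADAMTS2 had 3.13, 2.68 and 3.61. Against the 6 DMSO and 50 nM libraries, a comparison chosen after the data were seen, 42 genes were in excess in all 3, of which 33 were among the 36.

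**Figure D3:**
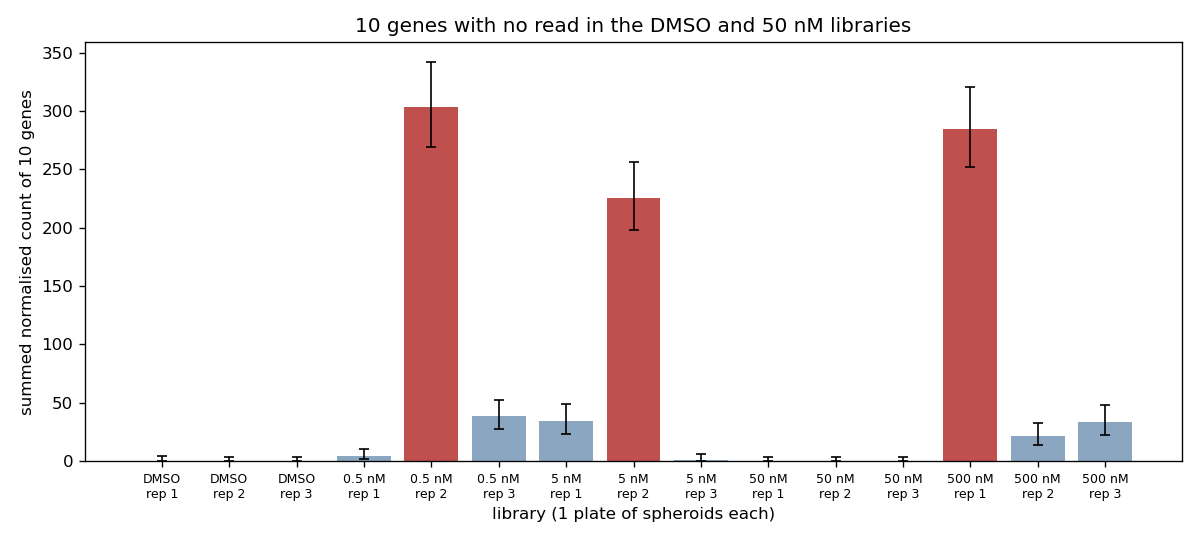
Summed normalised count of 10 genes with no read in the DMSO and 50 nM libraries, by library, with fibroblast-rich libraries in red, others in blue, and bars for the 95% exact Poisson interval. The 3 red bars stand at 304, 226 and 285, and 4 libraries hold between 21.7 and 38.1.

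Single genes were then compared between the 3 libraries. For 41 genes that were scarce with DMSO and at 50 nM (mean up to 5, highest up to 10) and averaged 10 or more in the 3 libraries, the 5 nM library was set against the mean of the other 2, with a 95% exact (Clopper-Pearson) binomial interval from the reads, which covers counting error only and compares these libraries and not their doses. For the sum of the 10 genes above this ratio was 0.767 (0.657 to 0.893), with the interval of the sum itself below 1. Of 24 such genes among the 36, 9 had an interval below 1 and 2 above 1, but set against 0.767 the interval included that ratio for 18, lay below it for 2, MMP2 and AEBP1, and above it for 4, FBN2, ALPK2, TENM2 and THY1-AS1. Of the 24 genes, 7 are themselves in the sum. MMP2 was at a ratio of 0.521 (0.389 to 0.690), POSTN at 0.572 (0.416 to 0.775) and COL3A1 at 0.712 (0.588 to 0.858). ALPK2 was at 2.14 (1.10 to 4.24) and FBN2 at 1.67 (1.16 to 2.42). DCN, at 0.935 (0.639 to 1.35), and CD248, at 1.12 (0.741 to 1.67), had intervals that include 1.

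The 500 nM library was also set against the 0.5 nM library. For 23 of the 24 genes the interval of this ratio included 1, and the exception was AEBP1 at 1.83 (1.02 to 3.36). The ratio was 0.997 (0.814 to 1.22) for COL3A1, 0.971 (0.713 to 1.32) for POSTN and 0.982 (0.746 to 1.29) for MMP2. For scarcer genes such as ALPK2, at 0.938 (0.330 to 2.67), a 2-fold difference was not detectable at this depth.

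Outside the 36 genes, 4 genes without a second copy on an alternate contig had an interval above 1 for the 5 nM library. SULF1, an extracellular sulfatase of heparan sulfate, had 35.0, 132 and 25.6 in the 3 libraries in order of dose, and ACAN, the cartilage proteoglycan aggrecan, had 8.74, 62.2 and 3.07. Their ratios of the 5 nM library to the mean of the other 2 were 4.35 (3.18 to 6.03) and 10.5 (5.52 to 22.1). MXRA5, a matrix remodelling protein, was at 3.80 (1.85 to 8.27) and PCDH18, a protocadherin, at 2.91 (1.43 to 6.11). In MXRA5, with 6.56, 24.1 and 6.15, as in ACAN, most of the reads behind the mean came from the 5 nM library, and these genes are named with their values known.

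**Figure D4:**
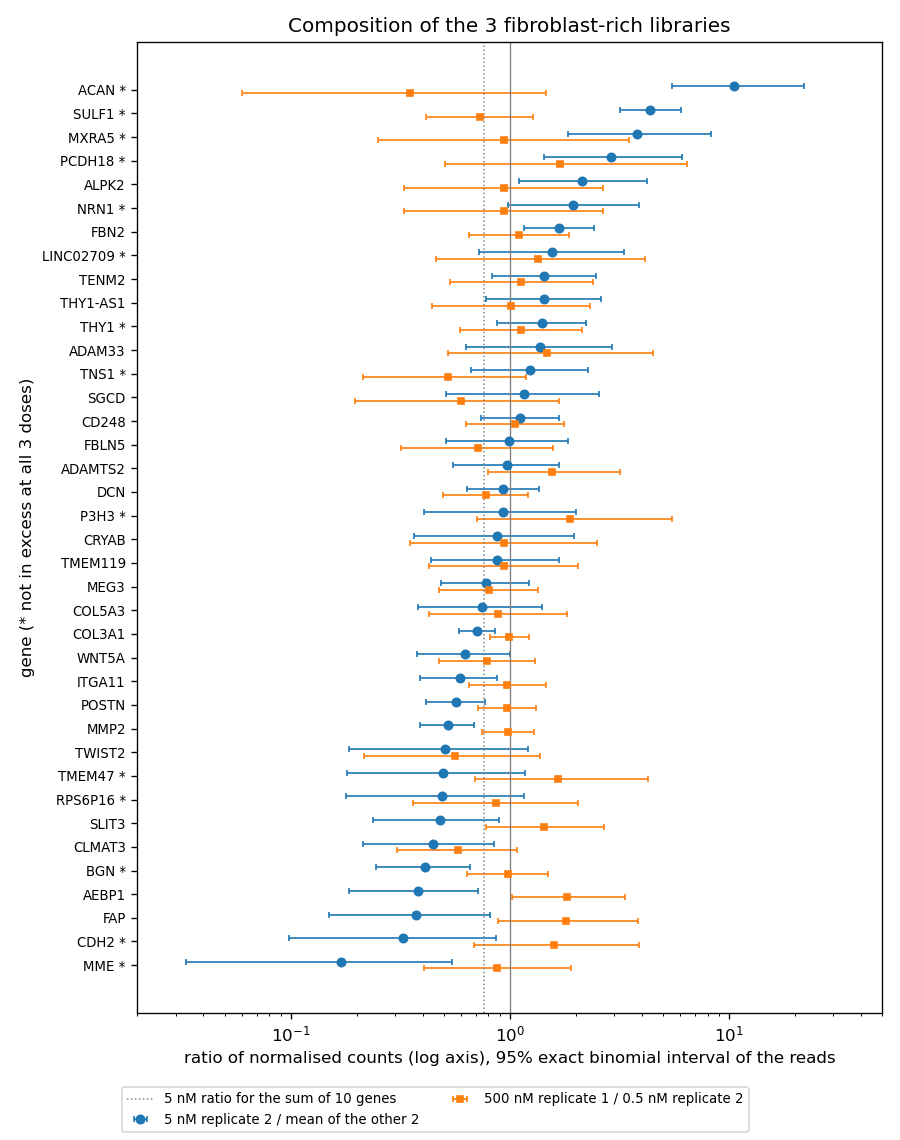
Ratios of normalised counts between the fibroblast-rich libraries for 38 genes scarce in the DMSO and 50 nM libraries, on a log axis, with 95% exact binomial intervals, for the 5 nM library over the mean of the other 2 (circles) and the 500 nM over the 0.5 nM library (squares), and a dotted line at 0.767. Genes with a second copy are not drawn, and ratios in circles run from FAP at 0.373 to ALPK2 at 2.14 among the 36 genes.

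Smooth muscle and pericyte genes apart, no member of 15 lists of other cell types met the excess rule at all 3 doses. Lists of endothelial, leukocyte, macrophage and monocyte, plasma cell, erythroid, adipocyte, bone and cartilage, skeletal and heart muscle, nerve and glia, melanocyte, mesothelial, epithelial, liver, placenta and pluripotent stem cell genes held 182 entries, of which 48 were measured at the minimum, 77 had no read in any of the 3 libraries, and 0 were in excess. With 0.236% of all measured genes in excess, 0 of 48 is near the background, and nothing is read from it. Genes without a read were also common, since only 22031 to 22937 of 59608 gene symbols had a read in any 1 library. The list medians ran from -0.06 for endothelial to 0.72 for adipocyte genes, a list of 3 measured members that holds CFD. ACAN, of the bone and cartilage list, was the nearest to the rule of those measured at the minimum: it met it at 2 doses, had a lowest ratio of 1.90, and was higher in each of the 3 libraries than in the other 12. Genes without a read in the 3 libraries included CDH5 for endothelium, CD3E, CD2 and MS4A1 for lymphocytes, CD163, MRC1 and the C1Q genes for macrophages, JCHAIN for plasma cells, HBB and HBA1 for erythroid cells, ADIPOQ for adipocytes, and IBSP for bone. Other members of the same lists were read, such as KDR, ROBO4, IL7R, TRAC and CSF1R, and nothing is read from the unread ones. PTPRC, the shared leukocyte antigen, had 0, 0.928 and 0 in the 3 libraries. PECAM1, an endothelial marker with 148 to 215 in the DMSO libraries, had 145, 178 and 109 in the 3.

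Several of the most abundant members of these lists had log2 excesses near 0. KRT8 and KRT18, the keratins of simple epithelium, had mean log2 excesses of -0.01 and -0.01, LAPTM5 had -0.06, ESAM 0.03, CD14 -0.05 and SOX9 -0.07. Among smooth muscle and pericyte genes, 1 of 7 measured was in excess and the list median was 0.04. That was ACTA2, the smooth muscle actin that activated fibroblasts also make, with 73.2, 87.3 and 82.0 against 17.0 to 32.2 in the other 6. TAGLN, an actin-binding protein of the same cells, had 185, 150.4 and 211 against 62.3 to 97.5, and met the rule at 2 doses. MYH11, the smooth muscle myosin, had no read in the 3 libraries, and RGS5, a pericyte marker, had 39.3, 39.9 and 40.0 against 41.0 to 62.6.

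Few genes that record body position were measured. Of 39 HOX genes 6 were measured at the minimum and 0 were in excess, with a list median of 0.06, and 16 had no read in the 3 libraries. With 0.236% of all measured genes in excess, 0 of 6 is near that share and is not read as a result. HOXA13 had 71.0, 65.0 and 31.8 against 40.6 to 70.3 in the other 6, and HOXB9 had 44.8, 38.1 and 40.0. Of 50 regional mesenchymal transcription factors, 13 were measured at the minimum and 1, TWIST2, was in excess, with a list median of 0.02.

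Lists of spheroid cell markers and general cell processes had medians near 0 in the fibroblast-rich libraries. The 8 lists of MDA-MB-231 spheroid markers, mitosis, hypoxia and glycolysis, cholesterol synthesis, ATF4 targets, interferon-stimulated genes, ribosomal proteins and mitochondrially encoded mRNAs had 211 measured members, of which 0 were in excess and 0 in deficit. With 0.236% of all measured genes in excess and 0 in deficit, both counts are near the background, and nothing is read from them. Their list medians lay between -0.02 and 0.01 on the log2 scale, beside -0.00 over all genes. VIM, the intermediate filament gene of mesenchymal cells, had log2 excesses of 0.00, -0.05 and 0.05, and CD44 had -0.07, 0.05 and 0.02.

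The counts were set beside those of every single library, as a description. Set against the 2 others of its group, each of the other 12 libraries had 43 to 73 genes at least 2-fold higher than both and at 10 or more, and the fibroblast-rich libraries had 100, 119 and 110. Of these, 34, 33 and 33 belonged to the 36, so without them the counts were 66, 86 and 77. Of the genes with an annotation, 40.9% to 69.0% of those in the other 12 libraries had a second copy on an alternate contig, and 20%, 25.6% and 17.6% in the fibroblast-rich libraries. As counts these were 8 to 21 genes in the other 12 and 14, 22 and 13 in the fibroblast-rich libraries. Among the 36, 1 gene of 35 annotated had a second copy, HRAS. The 3 libraries were chosen on this contrast, so their higher counts and lower shares follow in part from the choice. Among the 107 genes in excess at 1 dose only, 31 of 94 had a second copy, and among the 23 at 2 doses 7. CFD, a complement protease of adipocytes and fibroblasts, is one of these 7, and had 57.9 in the 0.5 nM library and 1.86 and 1.02 in the other 2.

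The thresholds left genes of the same kind just outside. The lowest means among the 36 were 10.1 for SGCD, 10.2 for CRYAB and 10.6 for ADAM33. MFAP5, a microfibril protein, met the fold at all 3 doses with a mean of 8.92, PODN, a small proteoglycan, with 8.19, and COL11A1, a fibril collagen with no read in the other 12 libraries, with 7.08. On the fold, FBLN2 and LUM were just inside, with a lowest ratio of 2.03 and 2.12, and STC2, MXRA5 and ACAN just outside, with 1.95, 1.92 and 1.90.

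The 3 libraries also entered the comparison of each dose with DMSO, where they are 1 of 3 replicates. These tests include the values that chose the libraries and are given for their effect on the dose comparison alone. By limma on log2 of normalised count plus 1, with Benjamini-Hochberg adjustment over 15233 genes, the share of genes called higher was 0.0656%, 3.63%, 10.9% and 16.2% in order of dose. Of the 36 genes, 18 reached the mean of 10 in all 15 libraries together that the test needed, a filter that many passed only through the fibroblast-rich libraries, and limma called 0, 0, 0 and 1 of them higher at the 4 doses, the 1 being CD248, while 2, 2, 0 and 5 had an unadjusted p below 0.05. edgeR's quasi-likelihood test called 9 of the 18 higher at 500 nM, where it called 16.1% of all genes higher. It called 3 of them at 5 nM and 0 at the remaining doses.

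No marker passed with limma, and the replicates of a dose lay far apart. Of the 6 markers tested, 0 were called at any dose, with 2, 1, 0 and 3 at an unadjusted p below 0.05 in order of dose. At 500 nM edgeR called all 6 and DESeq2 called 4, with no p-value given for POSTN by DESeq2. COL3A1 was 4.69 ± 1.63 (SE) log2 units above DMSO at 500 nM by limma, with an adjusted p of 0.0503. COL1A1 was 1.80 ± 1.24 above DMSO, with an adjusted p of 0.327 by limma.

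Without the 3 libraries the log2 differences of the markers at 500 nM were smaller and their errors smaller too. By limma, 14.7% of all genes were then called higher at 500 nM, as were 5 of the 18 genes, CD248, COL3A1, DCN, HRAS and MMP2, and also the marker BGN, which is not one of the 36. COL3A1 was 3.63 ± 0.68 and DCN 2.75 ± 0.96 above DMSO. These calls are no test of the libraries that remain, since the genes entered through the mean over all 15 libraries and the other 2 at 500 nM were part of the contrast that chose the 3. COL1A1 was 0.68 ± 0.42 above DMSO, with an adjusted p of 0.295 by limma. In those 2 libraries DCN had 4.72 and 6.88 normalised counts, against no read with DMSO. Over all genes, limma called 11, 1053, 3134 and 4933 with all libraries and 6, 890, 3136 and 4466 without the 3, of which 4, 764, 3095 and 4256 were called in both.

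**Figure D5:**
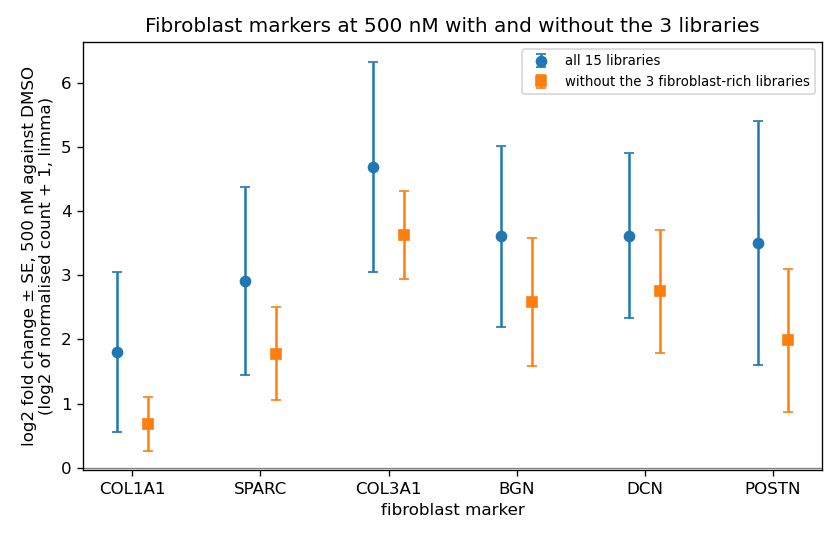
Log2 fold change, with SE, of 6 fibroblast markers at 500 nM against DMSO by limma on log2 of normalised count plus 1, with all 15 libraries (circles, n = 3 and 3) and without the 3 fibroblast-rich libraries (squares, n = 2 and 3). COL1A1 moves from 1.80 to 0.68 and COL3A1 from 4.69 to 3.63.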

How the data were processed

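RNA of 15 libraries was used. The study's methods state poly(A) selection and paired-end reads, aligned to hg38 with HISAT2, counted with htseq-count and tested with DESeq2; versions and the strand setting are not given in the sources used here. The authors deposited a signal table of 59608 gene symbols, gene counts divided by the size factor of each library. Of the values, 100% were whole multiples of the step of 1 read (tolerance 0.001), so reads were recovered. The authors' tables of their own comparisons (log2 fold changes and p-values) were not used.

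The libraries, members and 34 gene lists were chosen with earlier results of these data known. The excess at a dose was log2 of the chosen library's normalised count plus 1 minus the mean of the other 2, and its SD is over 3 doses. Named were the 7 markers, the 20 genes highest in excess whose mean in the 3 libraries reached 100 (5 such genes existed), the list members in excess, and the most abundant members of other cell type lists. The other genes of the 36, the genes compared between the 3 libraries, CFD and other single genes go beyond this rule, their values being known. One gene that can tell the sex of a donor was left out of the comparison between the 3 libraries. Doses were tested against DMSO in 1 limma 3.58.1 fit (limma-trend, robust) of 5 groups, on 15233 genes whose overall mean reached 10, called at an adjusted p below 0.05, two-sided. On recovered reads edgeR 4.0.16 called 8, 865, 3091 and 4822 genes and DESeq2 1.42.0 called 4, 636, 2345 and 3929 at the 4 doses. DESeq2 left some genes without an adjusted p, and at 5 nM gave one for 11096. P-values measure the spread between replicate libraries. Both calculations were tested on simulated data. For the excess rule the simulated surplus was larger than that of most of the 36 genes, so the finding of scarce genes was not tested. Positions came from GENCODE release 44, and a second copy meant at least 50% of 31-base words on 1 of 261 alternate contigs. Software was Python 3.11.15 (pandas 2.3.3, numpy 2.4.6, matplotlib 3.10.9, scipy 1.17.1) and R 4.3.3.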

Additional observations from a re-analysis of the deposited data

How the results depend on the processing

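The count of 36 genes in excess became 18 at a fold of at least 3, 10 at a mean of at least 50 and 68 with no minimum, and lay between 37 and 43 when 1 library was left out. It was 53 at a fold of at least 1.5, 27 with a pseudocount of 5, 36 with TMM scaling and 35 without genes with a second copy. Of the log2 excesses of 38 genes under 8 alternatives, 33 values moved by more than their SD over doses, 25 of them with the pseudocount of 5, and none turned in sign. Limma's 11 calls at 0.5 nM became 32 with no minimum, 4 with DESeq2 and 6 without the 3 libraries, and the 1053 at 5 nM became 636 with DESeq2. At that dose DESeq2 gave an adjusted p for 11096 genes only. Leaving out 1 library gave 5 to 14, 745 to 1041, 2553 to 3167 and 4405 to 4989 calls at the 4 doses, with 5 at 0.5 nM without replicate 2 of that dose. Limma's 0 markers became 1 at 0.5 nM, 1 at 5 nM and 2 at 500 nM with no minimum. At 5 nM edgeR called 1, and at 500 nM DESeq2 called 4 and edgeR 6. At 500 nM 3 were called without the 3 libraries and 2 without genes with a second copy. With 1 library left out, 0 to 1 marker was called at 5 nM (1 without replicate 2 at 0.5 nM) and 0 to 3 at 500 nM: 3 without replicate 1 or 2 at 0.5 nM or replicate 2 or 3 at 5 nM, and 1 without replicate 2 at 500 nM. With the replicate block, 1 marker was called at 500 nM and 14, 1064, 3148 and 4958 genes at the 4 doses. The labels link samples of different doses by replicate number alone. The correlation of the deviations of same-numbered samples ran from -0.12 to 0.18, with 1 of 30 pairs over 0.1. That pair was replicate 2 at 0.5 nM and replicate 2 at 5 nM, both fibroblast-rich. Of 15 libraries, 7 matched best with their own number. Depth limits the scarce genes, where 1 read is worth 0.886 to 1.15 normalised counts.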
